A study of Homo sapiens with 6 samples.

Results

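The guides described here target the Fanconi anemia pathway of DNA crosslink repair in a screen that knocked out DNA repair genes in pairs. They were taken by name, as every guide whose gene symbol begins with Fanc or Faap or is Ube2t, Wdr48, Rfwd3 or Dclre1a. This gave 64 guides of 16 genes, 4 per gene, out of 1826 targeting guides of 459 genes. Beside these stood 61 non-targeting guides, which are designed to cut no gene. Each construct carried 2 guides, and the reads of a guide were summed over all its partners, of which these guides had between 319 and 937 (median 930). The reads of a construct, amplified from genomic DNA, stand for the cells that carried it at collection. Fewer cells with a construct, slower growth of such cells and a change in amplification cannot be told apart from the counts.

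The 6 libraries fall into 3 groups with 2 replicates each. The irradiated cells were grown for 15 days and 10 population doublings and received 0.6 Gy of X-rays 24 hours after every split. The unirradiated cells were grown for 14 days and 12 population doublings under standard conditions, and the remaining group was collected at day 0. All groups were eHAP iCas9-cl#6 cells, which are 1 clone of the near-haploid human line eHAP with the p53 null genotype and Cas9 under doxycycline control. All cells were transduced at low multiplicity, selected with puromycin and kept in blasticidin, and received doxycycline during the first week. Whether day 0 came before or after its start is not stated. The labels name 2 different lethal doses for the radiation, LD20 and LD30. They do not say whether the replicates came from separate transductions, so the p-values below measure only the spread between these libraries, which may be technical. Loss of the targeted proteins was not measured in the files used here, and without guide sequences no target site is given.

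The Fanconi anemia pathway recognises an interstrand crosslink, a covalent bond between both DNA strands that blocks replication forks. FANCM and FAAP24 bind the stalled fork and anchor a core complex, whose ubiquitin ligase FANCL works with the conjugating enzyme UBE2T to attach ubiquitin to the FANCD2 and FANCI clamp. The modified clamp directs nucleases and translesion polymerases to the crosslink, and homologous recombination then mends the break. WDR48 helps USP1 to take the ubiquitin off again, RFWD3 is a ubiquitin ligase that acts on RPA at the damaged fork, and DCLRE1A is a nuclease that digests DNA past the crosslink. X-rays make mainly strand breaks and oxidised bases rather than interstrand crosslinks. The tables write gene symbols in the mouse style although the cells are human, and all 16 matched a human gene in RefSeq (GRCh38.p14).

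Guide and gene levels are given as CPM, normalised read counts brought to a common total by edgeR's TMM scaling. For guides this was done at each position of the construct, and for genes on sums over both positions. The libraries held between 61185707 and 86587125 reads. Irradiated replicate 2 and day 14 replicate 1 were incomplete, with 49.4% and 54.1% of the 863546 guide pairs at 0 reads, against 1.93% to 7.62% in the other 4 libraries. Guides of the pathway followed this, with reads from a median of 49.1% and 42.9% of their partners in these 2 libraries and from 94.7% to 98.9% in the others. Of the 64 guides, 62 had a mean of at least 2000 reads. Faap100_sg4 (mean 88.3 reads) and Fancf_sg3 (mean 409 reads) did not, and were left out of the tests of single guides. The median half-width of the 95% interval was 0.14 on the log2 scale for genes and 0.20 for guides.

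Summed over all partners, guides against the pathway were about as abundant in irradiated cells as in unirradiated cells at day 14. The median log2 change of the 16 genes was 0.01, against 0.00 for all 459 genes, with a range of -0.23 to 0.09. Of the 16 genes, 7 were lower in irradiated cells, and 47.9% of all genes were. None passed the test (edgeR's quasi-likelihood test, Benjamini-Hochberg adjusted p under 0.05), as was the case for 0% of all genes, and DESeq2 also called none of the 16. At an unadjusted p under 0.05 stood 1 of the 16, Rfwd3, and 2.61% of all genes.

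By role, the differences between irradiated and day 14 cells were small in every step of the pathway. The 8 core complex genes lay between -0.02 (Faap20, a subunit that binds ubiquitin) and 0.08 (Fancl, the ligase). The anchor genes Fancm and Faap24 were at 0.03 and 0.08, the conjugating enzyme Ube2t at 0.00, and the clamp genes Fancd2 and Fanci at 0.06 and 0.09. Wdr48, the partner of the deubiquitinase USP1, was at -0.01. Among these 14 genes the 95% intervals reached no further than -0.22 and 0.27, so a change of all guides of 1 gene beyond that range lay outside the intervals. Of the later steps, the nuclease gene Dclre1a was at 0.04 and Rfwd3 at -0.23.

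Rfwd3 (RFWD3, chromosome 16, 74621399 to 74666877 on GRCh38.p14) had 1422 and 1356 CPM in irradiated cells, 1590 and 1657 at day 14 and 1587 and 1511 at day 0. Both irradiated libraries were below all 4 others. For 17.9% of all genes both irradiated values were below both day 14 values. The log2 change was -0.23 against day 14 (SE 0.06, 95% interval -0.36 to -0.09, adjusted p = 0.998). Against day 0 it was -0.16 (SE 0.06, 95% interval -0.30 to -0.02, adjusted p = 0.624).

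A single guide carried this difference. Rfwd3_sg4, read at the second position of the construct, had 543 and 475 CPM in irradiated cells, against 939.8 and 1029.9 at day 14 and 883 and 761 at day 0. Both irradiated values were lower than all other values of this guide. For 15.8% of all guides both irradiated values were below both day 14 values. Its log2 change was -0.95 against day 14 (SE 0.11, 95% interval -1.23 to -0.67, adjusted p = 0.107) and -0.69 against day 0 (SE 0.11, adjusted p = 0.341), neither past the threshold with edgeR and all 6 libraries. DESeq2 called both differences (adjusted p = 1.30e-10 and 4.75e-05). Against day 14, edgeR also called the guide without day 0 replicate 1 (adjusted p = 0.000256) or day 0 replicate 2 (adjusted p = 0.000232). Against day 0 it did so without day 0 replicate 2 (adjusted p = 0.000187). Rfwd3_sg1, Rfwd3_sg2 and Rfwd3_sg3 were at 0.06, 0.06 and -0.07 against day 14.

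Within Rfwd3_sg4, in turn, 1 construct carried the difference, the one that paired it with Mutyh_sg1, a guide against the DNA glycosylase gene Mutyh of base excision repair. This construct had 10 and 2 reads in the irradiated libraries, against 31108 and 30281 reads at day 14 and 32029 and 21311 at day 0. It was the most abundant of all constructs in each of the 4 unirradiated libraries, where it gave 32.8% to 54.3% of all reads of Rfwd3_sg4, and the irradiated libraries hardly held it. Among 136 constructs with at least 1000 reads in every unirradiated library, it was the only 1 with under 20 reads in both irradiated ones. Both cut-offs were set with the reads of this construct known, so this count is a description and not a test.

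The other 7 constructs that joined Mutyh and Rfwd3 had 308 and 169 reads in all in the irradiated libraries, against 266 and 346 at day 14 and 328 and 454 at day 0. None of these 7 held more than 264 reads in any library. Without the construct with Mutyh_sg1, Rfwd3_sg4 stood at 543 and 475 CPM in irradiated cells, 430 and 531 at day 14 and 524 and 511 at day 0, and the groups overlapped. In a fit that left out the largest construct of every guide, Rfwd3_sg4 was at 0.08 against day 14 and at -0.01 against day 0. The gene Rfwd3 was then at 0.01 and -0.01. The construct of Mutyh_sg2 with the same Rfwd3_sg4 had 57 and 0 reads in irradiated cells, 0 and 13 at day 14 and 26 and 27 at day 0. The cause of the difference between the irradiated and unirradiated reads of the construct with Mutyh_sg1 was not tested.

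Among single guides, the comparison of irradiated with day 14 cells gave a median of 0.03 for the 62 measured guides of the pathway and 0.00 for all 1849 guides tested. Here 24 of the 62 were lower, against 51.3% of all guides. No guide passed the test (0% of all guides), while 4 of the 62 had an unadjusted p under 0.05, against 4.49% of all guides. These were Rfwd3_sg4, Fancg_sg2, Faap24_sg2 and Fancd2_sg1. DESeq2 called the first 3 of these and 22 guides in all. The 61 non-targeting guides lay between -0.21 and 0.17 in the same comparison.

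Faap24_sg2 was more abundant in both irradiated libraries. Its gene, Faap24 (FAAP24, chromosome 19, 32972242 to 32978229), codes for the partner of FANCM at the stalled fork. The guide had 392 and 304 CPM in irradiated cells, against 243 and 210.2 at day 14 and 249.7 and 231 at day 0. The irradiated values lay above all others, and 15.1% of all guides had both irradiated values above both day 14 values. The log2 change was 0.62 against day 14 (SE 0.16, 95% interval 0.23 to 1.01, adjusted p = 0.740; DESeq2 adjusted p = 0.0425) and 0.53 against day 0 (SE 0.16, adjusted p = 0.789; DESeq2 adjusted p = 0.157).

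In contrast to Rfwd3_sg4, the higher level of Faap24_sg2 did not rest on 1 construct. Its largest construct held at most 2.97% of its reads in any library, and without it the change was 0.63 against day 14. Between the complete libraries, irradiated replicate 1 and day 14 replicate 2, 315 of 369 constructs with a mean of at least 20 reads were higher in irradiated cells (85.4%, median log2 ratio 0.99). Over the 62 guides this share ran from 40.6% to 85.4% with a median of 49.5%, so that Faap24_sg2 was the highest. A construct entered through the mean of both libraries compared, so one high in irradiated cells passed more readily. With few reads per construct this raises the share, which therefore does not show how widely the higher level was spread. The constructs share this guide and both libraries, and are not replicates.

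The other guides of Faap24 gave other values. Against day 14, Faap24_sg1 was at 0.02, Faap24_sg3 at -0.13 and Faap24_sg4 at 0.07, and the gene as a whole was at 0.08 (95% interval -0.09 to 0.26). Against day 0, Faap24_sg3 was lower, with 460 and 382 CPM in irradiated cells and 555 and 502 at day 0 (log2 change -0.33, SE 0.11, adjusted p = 0.789). The 4 guides of Faap24 thus spanned 0.86 on the log2 scale in that comparison, the widest span of the 16 genes, whose median was 0.25, against 0.22 for all genes.

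Fancg_sg2, against a scaffold subunit of the core complex, was lowest at day 14. It had 298 and 326 CPM in irradiated cells, 234 and 233 at day 14 and 285 and 311 at day 0. Both day 14 values were below all others. Of all guides, 15.1% had both day 14 values below both irradiated values, and 21.5% had them below both day 0 values. Its log2 change was 0.42 for irradiated cells against day 14 (SE 0.10, adjusted p = 0.663; DESeq2 adjusted p = 0.00415) and -0.35 for day 14 against day 0 (SE 0.10, adjusted p = 0.646; DESeq2 adjusted p = 0.0414). Irradiated cells against day 0 gave 0.07 (SE 0.10). The remaining guides of Fancg were at 0.01, -0.12 and 0.04 in irradiated cells against day 14, and the gene stood at 0.04.

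Growth for 14 days without irradiation left the pathway's guides close to their day 0 abundance. The 16 genes had a median log2 change of -0.08 at day 14 against day 0, with a range of -0.16 to 0.13, against a median of 0.01 for all genes. Of these, 13 were lower, against 48.4% of all genes. None passed the test, as for 0% of all genes, and none of the 16 had an unadjusted p under 0.05, against 3.92% of all genes. DESeq2 called 2 genes in all and none of the 16.

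The 3 genes of smallest p were Fancb, Faap20 and Fanci. Fancb, a core complex subunit encoded on the X chromosome, had 1932 and 1950.3 CPM at day 14, against 2193 and 2013 at day 0 (log2 change -0.12, SE 0.05, adjusted p = 0.544). Faap20 had 812 and 887 at day 14, against 985 and 907 at day 0 (-0.16, SE 0.08, adjusted p = 0.544). Fanci, one of the clamp proteins, had 1178 and 1252 at day 14, against 1338 and 1331 at day 0 (-0.14, SE 0.07, adjusted p = 0.544). In each of them both day 14 values were below both day 0 values, which held for 7 of the 16 genes and for 20.3% of all genes. The highest gene was Wdr48 at 0.13 (SE 0.08).

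In day 0 replicate 1, 264 of the 927 position 2 guides tested formed a separate lower group, at or below -0.53 in log2 ratio to day 0 replicate 2, while the rest lay at or above -0.20. Of the 30 position 2 guides of the pathway, only Wdr48_sg3 (-0.66) and Wdr48_sg4 (-0.81) were in the lower group. In day 0 replicate 1, 26 of the 30 had more CPM than in replicate 2, against 49.5% of all position 2 guides. That 49.5% counts in the lower group, where no guide was above 0. Outside the lower group the median log2 ratio was 0.17 for the pathway's guides and 0.12 for all position 2 guides. At position 1 the pathway's guides lay between -0.15 and 0.11. At day 14, 26 of 30 position 2 guides, but 18 of 32 position 1 guides, were lower than at day 0, with medians of -0.10 and 0.00. Of all guides tested, 49.2% at position 2, with the lower group counted in, and 51.4% at position 1 were lower.

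Without day 0 replicate 1, 10 of the 16 genes were lower at day 14, with a median of -0.02, and none passed. Fanci was then the lowest, at -0.13 (95% interval -0.30 to 0.03). Without day 0 replicate 2, so that replicate 1 was the only baseline, edgeR called 6 of the 16 genes at day 14, but also 38.6% of all genes. Of these 6, Wdr48 was higher (0.24), and Fancb, Faap20, Fancg, Ube2t and Dclre1a were lower (-0.14 to -0.21). Wdr48_sg3 had 851 and 800.3 CPM at day 14, against 509 and 807 at day 0, and Wdr48_sg4 had 332 and 386, against 214 and 376. In both guides day 0 replicate 1 was the low value and day 0 replicate 2 lay with or close to the day 14 values. The part of this library in the lower count of the other genes was not tested beyond leaving it out.

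Among single guides at day 14 against day 0, 44 of 62 were lower, against 50.3% of all guides, and the median was -0.06. No guide passed the test (0% of all guides), and 1 of the 62 had an unadjusted p under 0.05, Fancg_sg2, against 4.27% of all guides. DESeq2 called 24 guides in all and this 1 among the 62. Next in order of p was Rfwd3_sg4 at 0.26, which was at -0.10 without its construct with Mutyh_sg1. Ube2t_sg3 followed, with 939 and 993 CPM at day 14, against 1183 and 1040 at day 0 (-0.20, SE 0.09, adjusted p = 0.646).

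Irradiated cells against day 0 gave a median of -0.03 for the 16 genes, against 0.00 for all genes. Here 15 of the 16 were lower, against 51.6% of all genes, and Wdr48 at 0.12 was the exception. Without day 0 replicate 1, the number lower was 5 of 16 and the median 0.01. No gene passed the test (0% of all genes), and 1 of the 16, Rfwd3, had an unadjusted p under 0.05, against 3.92% of all genes. DESeq2 called 2 genes in all and none of the 16. After Rfwd3, the smallest p belonged to Faap20, with 873 and 799 CPM in irradiated cells against 985 and 907 at day 0 (-0.18, SE 0.08), and to Ube2t, with 2123 and 2048 against 2297 and 2115 (-0.08, SE 0.05), both with an adjusted p of 0.624.

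Among single guides in the same comparison, 38 of 62 were lower, against 51% of all guides, and none passed (0% of all guides). An unadjusted p under 0.05 was found for 3 of the 62, Rfwd3_sg4, Faap24_sg2 and Faap24_sg3, against 3.08% of all guides. DESeq2 called 27 guides in all and, among the 62, Rfwd3_sg4 alone. At position 1 the median of the pathway's guides was 0.03 and 11 of 32 were lower, against 50.8% of all guides there. At position 2 it was -0.09 and 27 of 30 were lower, against 51.2%, a share that counts in the lower group of day 0 replicate 1. Leaving out day 0 replicate 2, edgeR called 4 of the 16 genes, of which Rfwd3, Faap20 and Ube2t were lower and Wdr48 higher, with 35.1% of all genes called.

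Single knockouts were read from constructs that joined a guide of the gene to a non-targeting guide, with a median of 119 such constructs per gene. Their reads are given per 1000 reads of the constructs that held non-targeting guides alone. For irradiated cells against day 14, the 16 single knockouts had a median of -0.03 and lay between -0.29 and 0.57, and 10 were lower, against 64.3% of all genes. None passed the test (0% of all genes), and 1 had an unadjusted p under 0.05, against 2.83% of all genes. DESeq2 called no single knockout in any of the 3 comparisons. The median half-width of the 95% interval was 0.40 over all genes.

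That 1 gene was Ube2t (UBE2T, chromosome 1, 202331657 to 202341936). Its single knockout had 264 and 177 per 1000 in irradiated cells, against 120.3 and 176 at day 14 and 171 and 174 at day 0. Irradiated replicate 1 was high and day 14 replicate 1 low, while the other 4 libraries lay between 171 and 177. The log2 change was 0.57 for irradiated cells against day 14 (SE 0.21, 95% interval 0.13 to 1.01, adjusted p = 0.965) and 0.36 against day 0 (SE 0.21, adjusted p = 0.974). Over all partners, Ube2t was at 0.00 against day 14 (95% interval -0.13 to 0.13).

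The high value of Ube2t rested on 1 construct, in which Ube2t_sg2 was paired with a non-targeting guide. It had 4699 and 71 reads in irradiated cells, 3 and 720 at day 14 and 33 and 553 at day 0. In irradiated replicate 1 it made up 79.2% of the reads of Ube2t_sg2 with non-targeting guides. Without it, the Ube2t single knockout had 159 and 176 per 1000 in irradiated cells, against 120.2 and 158 at day 14 and 169.9 and 164 at day 0. The incomplete day 14 replicate 1 then remained the lowest library and the irradiated and day 0 groups overlapped.

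Of the other single knockouts, Fancf and Wdr48 came next for irradiated cells against day 14. Fancf, a core complex subunit that links its parts, had 134.5 and 146 per 1000 in irradiated cells and 211 and 132 at day 14 (-0.29, SE 0.21). Wdr48 had 165 and 163 in irradiated cells and 126 and 165 at day 14 (0.18, SE 0.19). In both, the incomplete day 14 replicate 1 stood apart from the other 3 values.

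At day 14 against day 0 the single knockouts had a median of 0.00, against 0.06 for all genes, and 8 of 16 were lower, against 36.6% of all genes. None passed (0% of all genes), and 0 of the 16 had an unadjusted p under 0.05, against 3.92% of all genes. Fanca, the core subunit most often mutated in patients, had 281.5 and 202 per 1000 at day 14 and 213 and 188 at day 0 (0.27, SE 0.20). Fancf had 211 and 132 at day 14, against 144 and 138 at day 0 (0.28, SE 0.21), and Faap100, a subunit bound to FANCB and FANCL, had 282 and 240.0 at day 14, against 240.4 and 218 at day 0 (0.19, SE 0.17). In all 3 the incomplete replicate gave the highest value.

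For irradiated cells against day 0 the single knockouts had a median of -0.01 and 9 of 16 were lower, against 47.1% of all genes. None passed (0% of all genes), and 0 of the 16 had an unadjusted p under 0.05, against 2.61% of all genes. After Ube2t came Fanca, with 192 and 284 per 1000 in irradiated cells against 213 and 188 at day 0 (0.25, SE 0.20), and Faap100, with 243 and 286 against 240.4 and 218 (0.20, SE 0.17). The incomplete irradiated replicate 2 gave the higher value in both. Without the 2 incomplete libraries, Ube2t was called at 0.61 (adjusted p = 0.00160), with irradiated replicate 1 and its abundant construct as the only irradiated library.

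Constructs that joined 2 genes of the pathway numbered 924 and covered all 120 gene pairs. Together they took 0.0808% and 0.0804% of all reads in irradiated cells, 0.0748% and 0.0793% at day 14 and 0.0900% and 0.0783% at day 0. The share was highest in day 0 replicate 1 and lowest in the incomplete day 14 replicate 1. The median pair had 412 and 483 reads in irradiated cells, 275 and 361 at day 14 and 582 and 510 at day 0. Each pair was set against the sum of the effects of both genes in the same library. Relative to this additive expectation, a negative value is a pair scarcer than both genes foretell. The log2 interaction compares this departure between groups, so a negative one need not mean a scarce pair.

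No pair of pathway genes changed its departure from that sum between groups by the test, which had little power for pairs. Among the 120 pairs, 0 had an adjusted p under 0.05 and 0 an unadjusted p under 0.05 in any comparison. Over all 105111 pairs, 0% were called, and the unadjusted threshold was passed by 0.833% for irradiated cells against day 14, 0.354% against day 0 and 0.43% for day 14 against day 0. The median of the 120 pairs was 0.03, 0.12 and -0.03 in the same order. The median half-width of the 95% interval was 1.64 to 1.65 for these pairs. On simulated counts for day 14 against day 0, the test recovered 0% of pairs changed 4-fold and 30% of those changed 16-fold. The lack of calls therefore does not show that interactions were absent.

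The pairs of smallest p for irradiated cells against day 14 were Dclre1a with Ube2t, Fanca with Fancd2 and Faap24 with Fancl. Dclre1a with Ube2t had 147 and 261 reads in irradiated cells, 616 and 244 at day 14 and 978 and 442 at day 0 (log2 interaction -1.56, 95% interval -3.26 to 0.14). Relative to the additive expectation it stood at -1.75 and -0.98 in irradiated cells, 0.84 and -0.77 at day 14 and 0.32 and -0.45 at day 0, so both irradiated values were the lowest. Faap24 with Fancl had 547 and 481 reads in irradiated cells, 97 and 179 at day 14 and 358 and 256 at day 0 (1.28, 95% interval -0.23 to 2.80). Its values relative to expectation, 0.89 and 0.68 in irradiated cells, were above all others, which lay between -0.63 and -0.17.

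Fanca with Fancd2, a core subunit with the clamp that the core modifies, had 839 and 660 reads in irradiated cells and 1547 and 760 at day 14 (-1.02, 95% interval -2.16 to 0.11). Relative to expectation it was at 0.10 and -0.44 in irradiated cells and at 1.36 and 0.16 at day 14. Against day 0, the pairs of smallest p in irradiated cells were Fancb with Fancf (1.35), Faap20 with Fancd2 (1.35) and Dclre1a with Fanca (1.16). Each was at 1.49 or more above the additive expectation in the incomplete irradiated replicate 2 and at 0.48 or less in irradiated replicate 1. At day 14 against day 0 they were Fancb with Fancc (1.17), Fancc with Fancl (1.03) and Fancg with Fancm (1.32). These again were highest in the incomplete library, day 14 replicate 1, at 1.48 to 2.18 against 0.22 to 0.41 in day 14 replicate 2.

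Without the 2 incomplete libraries, 4 pairs of pathway genes were called for irradiated cells against day 0, and 1274 of all pairs. Dclre1a with Ube2t was at -1.74 (adjusted p = 0.000270) and Faap20 with Fancl at -2.09 (adjusted p = 0.0225). Faap24 with Fancl was at 1.19 (adjusted p = 0.0382) and Fanci with Rfwd3 at 1.91 (adjusted p = 2.54e-07). That fit has 1 irradiated library, whose spread is assumed to equal that of the day 0 libraries. In irradiated replicate 2, which it leaves out, Dclre1a with Ube2t was at -0.98 and Faap24 with Fancl at 0.68 relative to expectation, while Faap20 with Fancl was at -0.45 and Fanci with Rfwd3 at -0.24.

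Of the 7208 pairs of a pathway gene with any gene, Mutyh with Rfwd3 had the smallest p in both irradiated comparisons, and it is named here after its values were seen. Its log2 interaction was -7.44 against day 14 (95% interval -8.63 to -6.25, adjusted p = 0.262) and -6.79 against day 0 (95% interval -7.95 to -5.64, adjusted p = 0.391). Without day 0 replicate 1, edgeR called the pair against day 14 (adjusted p = 0.0120) and against day 0 (adjusted p = 0.0402). Without day 0 replicate 2 it did so as well (adjusted p = 0.00959 and 0.0148), and without the 2 incomplete libraries it called the pair in all 3 comparisons. The pair's 318 and 171 reads in irradiated cells, against 31374 and 30627 at day 14 and 32357 and 21765 at day 0, are those of the construct described above and of its 7 companions. Relative to the additive expectation it was at -0.47 and -1.32 in irradiated cells and between 5.39 and 6.80 in the unirradiated libraries. The excess in the unirradiated libraries was that of the 1 construct with Mutyh_sg1. Its 7 companions had 266 and 346 reads at day 14, against 282 and 367 expected for the whole pair. At day 0 they had 328 and 454, against 394 and 517. The cause of the difference was not tested.

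Constructs with both guides against the same pathway gene were few, 62 over the 16 genes. They held 3529 and 4317 reads in irradiated cells, 2688 and 3244 at day 14 and 5270 and 4702 at day 0, which is 0.00494% and 0.00499%, 0.00434% and 0.00530%, and 0.00624% and 0.00543% of all reads. Summed over the 16 genes, all irradiated and day 14 shares were below both day 0 shares, the closest being 0.00530% and 0.00543%. Taken gene by gene, this held for Dclre1a, Fanca, Fanci and Fancm alone. It was reversed for Fancd2, and the other genes were mixed. Dclre1a had 63 and 0 reads in irradiated cells, 48 and 60 at day 14 and 271 and 201 at day 0. Constructs with both guides against the same other gene took 0.196% and 0.211% in irradiated cells, 0.199% and 0.200% at day 14 and 0.198% and 0.199% at day 0. In the incomplete libraries, irradiated replicate 2 and day 14 replicate 1, 58.1% and 66.1% of the 62 had no reads, and the lower shares were not tested further.

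The other crosslink repair genes of the library served as a wider view. The list of nucleases, recombination and translesion genes and of further partners held 25 measured genes. For irradiated cells against day 14 their median over all partners was 0.01 and 11 of 25 were lower. Usp1, which removes ubiquitin from the clamp together with WDR48, was at 0.17 (SE 0.05, adjusted p = 0.998) and Cenps, a histone-fold partner of FANCM, at 0.09. For day 14 against day 0 the median was -0.04 with 16 of 25 lower, Usp1 at -0.15 and the polymerase gene Poln at 0.08. For irradiated cells against day 0 the median was -0.02 with 14 of 25 lower, Poln at 0.09 and Palb2, which brings BRCA2 to breaks, at -0.13. None of the 25 passed the test in any comparison, and as single knockouts none passed either. Among those, Palb2 was at -0.45 (SE 0.21) for irradiated cells against day 0, the only one with an unadjusted p under 0.05.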

How the data were processed

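The authors deposited whole-number read counts per guide pair, not normalised, per the file headers. Per the submitters' processing notes, HISAT2 2.1.0 and hg38 were used, with no role stated. The sources used here do not say how reads became guide counts. The combined tables hold 2 columns that match no sample, and these were not used. Groups and replicate numbers came from the sample titles.

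The genes, the lists, the tests and the rule for naming were chosen with earlier results of these data known. The rule names the members past the threshold or, where fewer than 3 passed, the 3 of smallest p in each comparison. Counts were tested with edgeR 4.0.16 (quasi-likelihood, two-sided, R 4.3.3), fitted to all 6 libraries over all features, with Benjamini-Hochberg adjustment at 0.05. Guides and genes needed a mean count of 2000. Guides were scaled by TMM within each position, and genes by TMM on sums that pool both positions. Single knockouts needed a mean of 20 and were scaled by constructs with non-targeting guides alone. Gene pairs entered with an offset from an additive fit of medians (prior count 2, 25 iterations). The 3 comparisons share libraries. DESeq2 1.42.0, other scalings and filters, a replicate block and each replicate left out were the alternatives. The fits were tested on simulated data, in which the pair test recovered few of the changes put in. Deviations from the group means of same-numbered libraries correlated over genes at -0.11 (day 14 with day 0), 0.15 (irradiated with day 0) and -0.67 (irradiated with day 14). With 2 libraries per group, the last value means that differently numbered irradiated and day 14 libraries deviated alike. The main fits did not model this, and a fit with the numbers paired crosswise is given below. Sequences of guides were not used here.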

Additional observations from a re-analysis of the deposited data

How the results depend on the processing

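No guide, gene, single knockout or pair of the pathway passed the threshold with edgeR and all 6 libraries, and 137 of 150 repeats of these 12 counts under another setting also gave 0. Not all repeats could differ: for genes, single knockouts and pairs the count filters removed nothing, so changing them changed nothing. With the replicate block each of the 12 counts was 0, but the block called the pair of Mutyh with Rfwd3 for irradiated cells against day 14 (-7.50, adjusted p = 0.00760) and against day 0 (-6.78, adjusted p = 0.0111). DESeq2 called 1, 1 and 3 guides (day 14 against day 0, irradiated against day 0, irradiated against day 14). Of all guides it called 1.30%, 1.46% and 1.19%. Leaving out 1 replicate at a time leaves 1 library in a group. Guides and genes of the pathway were then called mainly without day 0 replicate 2, where many of all guides and genes were called too. Without the 2 incomplete libraries, 1 single knockout (Ube2t) and 4 pairs were called for irradiated cells against day 0. That fit holds 1 irradiated library, and single knockouts and pairs outside the pathway were called in it too. For irradiated against day 14 cells, the replicate numbers were also paired crosswise, a choice made after seeing the data. This called 3 guides and 1 gene of the pathway, against 3.52% of all guides and 5.01% of all genes.

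Of the 36 named values, 26 kept their sign under every setting tried. Without each guide's largest construct, also chosen after seeing the data, Rfwd3_sg4 was at -0.10 for day 14 against day 0 and 0.081 for irradiated against day 14, and the gene Rfwd3 at 0.014 in the second. From position 1 guides alone Rfwd3 was at 0.074 (irradiated against day 0) and 0.060 (against day 14) and Ube2t at 0.018 (against day 0). From position 2 guides alone Fancd2 was at -0.0022 (irradiated against day 14). Without the 2 incomplete libraries, the single knockouts of Fancf were at -0.10 (day 14 against day 0) and 0.025 (irradiated against day 14) and that of Fanca at -0.061 (irradiated against day 0). Leaving out 1 replicate at a time, Fancf ran from -0.10 to 0.58 and from -0.59 to 0.086 in the same comparisons, Fanca from -0.061 to 0.50 and Wdr48 from -0.00072 to 0.38 (irradiated against day 14). The cause of these changes was not tested. With 2 replicates per group and 2 incomplete libraries, pairs and single knockouts rest on few reads per construct, and counts of reads from PCR without molecular identifiers carry more error than counting alone.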
